A study of Homo sapiens with 6 samples.

Results

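The GATA factor genes GATA2, GATA3, GATA4, GATA5 and GATA6 were examined in a table of DNA methylation in M07e cells with and without DNMT3B. Their regions were those that overlap the RefSeq span of a gene or lie within 15 kb of it, which gave 45 of the 35130 regions of the table. GATA4 had 15 of them, GATA2 9, GATA5 8, GATA3 7 and GATA6 6, and 34 of the 45 lay inside the gene. M07e is an acute megakaryoblastic leukemia cell line grown with GM-CSF. Reduced representation bisulfite sequencing, which reads MspI fragments and so mostly CpG-rich sequence, was run on 3 control libraries (genotype WT) and 3 libraries of cells whose DNMT3B, a de novo DNA methyltransferase, was knocked out with CRISPR. The labels do not say whether the knockout is 1 clone or whether replicates are separate cultures.

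All levels, differences and q-values below are those of the authors' deposited table. It has 1 mean per group and region, so no value has a replicate error, the depth is unknown, and no test between libraries could be made. The control column is named M07e_WT. The other is named M07e_3883, a name no label uses, and was read as the knockout because it is the only other genotype; every direction depends on that reading. Calling a region required a q under 0.01 together with a difference of at least 25 percentage points in either direction. The authors' Mann-Whitney p of each called GATA region is under 0.1, the smallest that an exact two-sided rank test of 3 libraries against 3 can give, so these p-values count points other than libraries and do not measure the spread between libraries.

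GATA factors are zinc finger proteins that bind DNA at sites with the core letters GATA. GATA2 acts in blood stem and progenitor cells and gives way to GATA1 as megakaryocytes and red cells mature, and GATA3 directs T-cell development. GATA4, GATA5 and GATA6 act in the heart, the gut and other endodermal tissues. Methylation of CpG dinucleotides at a promoter is commonly linked to silence of the gene, whereas methylation elsewhere in a gene has no single reading. No expression was measured in these libraries, so nothing below says whether a GATA factor was made.

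Called regions at these genes went in both directions. Of the 45 regions, 9 were called (20.0%), against 6.74% of all regions of the table. The 9 were spread over all 5 genes, with 3 at GATA4, 2 each at GATA2 and GATA6, and 1 each at GATA3 and GATA5. Of these, 5 were higher in the knockout (4.57% of all regions were called higher) and 4 were lower (2.17% of all regions were called lower). GATA2, GATA4 and GATA6 each had calls of both directions, the call at GATA3 was higher and the call at GATA5 lower. No test of the GATA genes as a list was run. The count depends on the threshold: it was 3, all lower, at a difference of at least 40 points (3.42% of all regions), 5 at q under 0.001 (3.31% of all regions), and 18 with the authors' Mann-Whitney p adjusted by Benjamini-Hochberg under 0.05 in place of q (18.8% of all regions), of which 13 were higher and 5 lower. With regions that overlap a gene only, 6 were called in 4 genes, 5 higher and 1 lower, and none at GATA5.

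RefSeq promoter sequence was available for GATA2, GATA3 and GATA6, and regions of the table lay on it at GATA2 and GATA3. Stretches of these regions are shown before the values, written in the direction of the gene with each CpG dinucleotide in capitals (RefSeq, GRCh38.p14). The first is a region directly before the inner GATA2 start (chr3:128488594-128488629, minus strand), where control cells had 72.0% methylation and knockout cells 43.3%. The second is the neighbouring region, which reaches further upstream and was called higher; the part within the promoter window is shown (chr3:128488630-128488780, minus strand). The third is the far part of that same region on the promoter of the antisense RNA gene GATA2-AS1 (chr3:128488953-128489074, plus strand). The fourth is the GATA3 promoter that lies within the called GATA3 region (chr10:8049604-8049853, plus strand).
GATA2 inner promoter, lower stretch: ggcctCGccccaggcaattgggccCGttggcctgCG
GATA2 inner promoter, higher stretch: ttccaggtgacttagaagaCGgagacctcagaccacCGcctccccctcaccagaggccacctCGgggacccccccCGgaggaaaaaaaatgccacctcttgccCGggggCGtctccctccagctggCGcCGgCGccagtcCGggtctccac
GATA2-AS1 promoter, higher stretch: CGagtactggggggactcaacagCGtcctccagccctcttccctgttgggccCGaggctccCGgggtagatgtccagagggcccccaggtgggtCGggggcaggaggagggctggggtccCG
GATA3 second promoter, higher stretch: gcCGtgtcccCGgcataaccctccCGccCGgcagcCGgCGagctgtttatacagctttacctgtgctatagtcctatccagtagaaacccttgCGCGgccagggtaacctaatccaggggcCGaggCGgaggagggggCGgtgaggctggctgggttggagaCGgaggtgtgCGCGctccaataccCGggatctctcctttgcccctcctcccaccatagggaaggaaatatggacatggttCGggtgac

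The lower GATA2 stretch has 36 bases, lies 64 to 99 bases before the inner start (128488530) and holds 3 whole CpG dinucleotides. The higher stretch has 151 bases and 10 CpG dinucleotides, 4 of them within the letters CCGG that MspI cuts. The letters at the border between these 2 regions are CG, so the border divides a CpG: its cytosine on one strand belongs to the lower region and its cytosine on the other strand to the higher region. The number of sites in the table counts cytosines on both strands. The lower region has 7 sites, and the sequence has 7 such cytosines in it. The higher region has 23 sites, while 21 such cytosines lie in its part within the GATA2 window and 12 in its GATA2-AS1 part. So some cytosines shown there were not among its sites, and which ones is not known. The GATA2-AS1 stretch has 6 CpG dinucleotides in 122 bases and the GATA3 stretch 16 in 250 bases.

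Promoter windows here run from 250 bases before to 50 bases after an annotated start. The inner GATA2 window holds 22 CpG dinucleotides and the outer one 29, against a median of 14 over all 35116 windows (quartiles 4 and 28). The GATA3 window that lies in the called region holds 18, the other 5 GATA3 windows hold 5 to 36, and the GATA6 window holds 25. The letters GATAA, searched on both strands with overlaps allowed, are in 1 of the 6 GATA3 windows and in neither GATA2 window nor the GATA6 window, and 22.7% of all windows hold them. The MspI letters CCGG are in each of these GATA windows and in 63.1% of all windows.

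At GATA2 the called regions lay at the inner promoter and upstream of the gene. Of its 9 regions, 4 were higher and 5 lower in the knockout. The region directly before the inner start had 72.0% methylation in control cells, the highest control level of any GATA region, and 43.3% in knockout cells (7 sites, difference -28.7 points, q = 0.0260). It missed the q threshold and was not called. The abutting region upstream of it, with 23 sites over 445 bases (chromosome 3, 128488630 to 128489074), had 1.91% in control cells and 33.3% in knockout cells and was called (difference 31.4 points, q = 0.00872). So the border between regions with control means of 72.0% and 1.91% fell within a single CpG, and in the knockout the means were 43.3% and 33.3%. Levels of single cytosines are not given, so the level at that CpG is unknown. Of the 885 abutting pairs of the table, 351 (39.7%) differ in opposite directions, and 26 (2.94%) do so by at least 25 points on both sides, this pair among them.

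The other called GATA2 region was lower in the knockout. It lies 4138 bases outside the gene, upstream of its outer start and within GATA2-AS1 (chromosome 3, 128497339 to 128497631, 17 sites), and went from 49.4% in control cells to 8.33% in knockout cells (difference -41.1 points, q = 3.3e-05). Around the outer start (128493201), levels were at 0 in one group and a little above 30% in the other. The region 220 bases before the outer start, which touches its promoter window, was at 0% in control cells and 33.1% in knockout cells, and that 718 bases after the start at 0% and 32.1% (14 sites). The region 923 bases after the start was at 33.3% in control cells and 0% in knockout cells. None of these 3 was called (q = 1 for each). A region 675 bases after the inner start was low in both groups, with 4.27% and 0.513%. The remaining 2 GATA2 regions, 1077 and 1269 bases before the inner start, were at 0% and 31.9%, and at 33.3% and 0%, and were not called either.

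**Figure D1:**
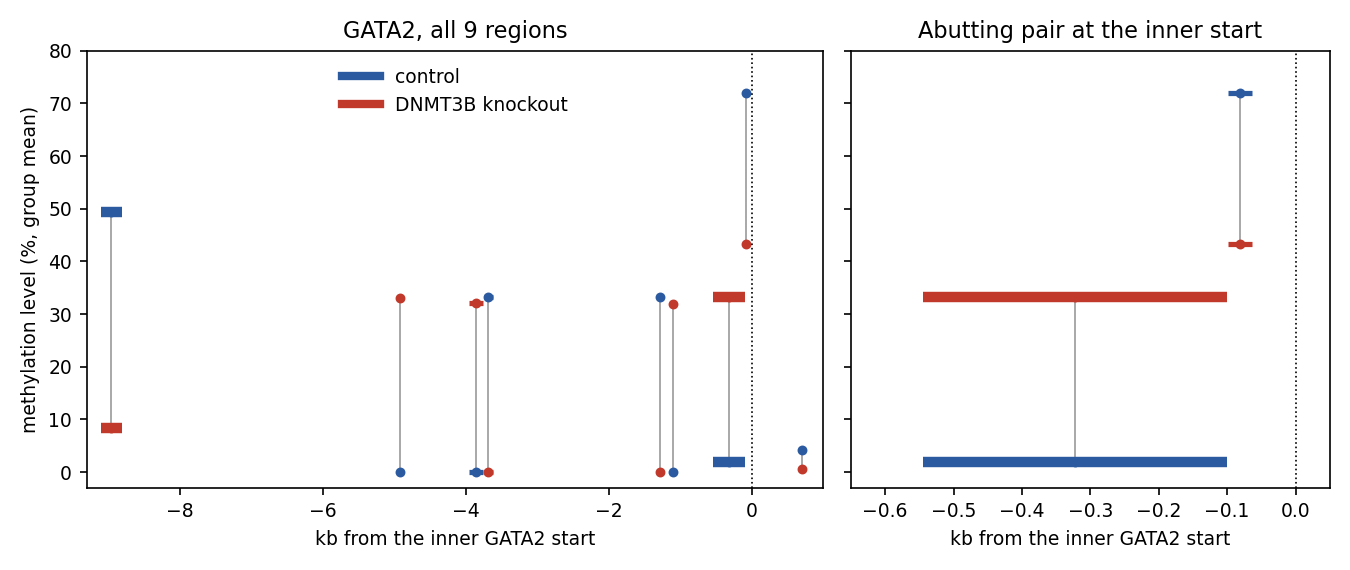
Methylation level (%, vertical) of the 9 GATA2 regions in control (blue) and DNMT3B knockout (red) against distance from the inner start in kb, gene direction to the right; bars span the region, points mark its middle, thick bars are called regions. At the right the abutting pair before the inner start is enlarged: the near region went from 72.0% to 43.3% and the far one from 1.91% to 33.3%.

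GATA3 had the longest called region of the 5 genes and no called loss. It covers 1068 bases with 42 sites inside the gene (chromosome 10, 8049593 to 8050660), holds the whole promoter window shown above and runs into GATA3-AS1, an antisense RNA gene. Its level was 8.47% in control cells and 44.8% in knockout cells (difference 36.3 points, q = 1.38e-05). The difference of largest size at GATA3 was at 6 sites 10659 bases outside the gene, from 1.85% to 44.1%, which was not called (42.2 points, q = 0.0260). The 3 other regions within 1000 bases of an annotated GATA3 start were not called (q = 1 for each). Of these, 7 sites went from 0% to 32.0%, 6 sites a short way on went from 40.5% to 16.7%, and 5 sites were at 1.21% and 9.28%. The remaining 2 regions were at 34.2% and 9.01% (7666 bases outside the gene) and at 0% and 29.0% (14 sites), with q of 0.317 and 1. In all, 5 of the 7 GATA3 regions were higher in the knockout.

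GATA4, a regulator of heart and endoderm development, had the most regions, and 12 of its 15 were higher in the knockout. All 3 called regions lie inside the gene on chromosome 8. The first, with 24 sites (11680295 to 11680557), went from 9.72% to 42.6% (32.9 points, q = 0.00708). The second, with 25 sites (11708766 to 11708864), went from 13.3% to 45.8% (32.4 points, q = 0.00969), just within the q threshold. The third was lower: 5 sites (11704697 to 11704728) went from 32.7% to 5.24% (-27.4 points, q = 0.000302).

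Several GATA4 regions that were not called differed as much as the called ones. The 2 largest differences were at 8 sites from 15.5% to 64.4% (11700722 to 11700742, 48.9 points, q = 0.0245) and at 5 sites from 19.3% to 61.7% (11681322 to 11681357, 42.3 points, q = 0.0743). A region of 24 sites and one of 28 sites were at exactly 0% in control cells and at 32.6% and 31.7% in knockout cells, each with q = 1. The other 8 GATA4 regions had 5 to 17 sites and differences from -8.86 to 39.0 points. The region farthest from the gene, at 2.43% and 0.848%, also overlaps NEIL2, a DNA repair gene.

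GATA5, which acts in heart and gut, had the highest median level of the 5 genes in both groups. Its 8 regions had a median of 25.7% in control cells and 46.8% in knockout cells. The medians for the table as a whole were 7.59% and 30.9%. Of the 8 regions 7 were higher in the knockout, by 14.2 to 33.3 points, and none of these was called. The largest of them was at 6 sites inside the gene, from 20.8% to 54.1% (33.3 points, q = 0.392), and the highest knockout level of any GATA region, chosen after its value was seen, was at 10 sites inside the gene, from 62.2% to 95.3% (q = 0.0869). The called region was the exception in direction. It lies 327 bases outside the gene (chromosome 20, 62476322 to 62476367, 8 sites) and went from 60.8% in control cells to 19.7% in knockout cells (-41.1 points, q = 8.95e-05). The next region outward, 2297 bases from the gene, went the other way, from 24.5% to 52.5% (q = 0.317).

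At GATA6, a factor of endoderm and heart, 1 region was called lower before the start and 1 called higher inside the gene. The largest loss of all GATA regions was 2356 bases before the start, within the antisense RNA gene GATA6-AS1: 5 sites within 6 bases (chromosome 18, 22167228 to 22167233) went from 71.1% to 21.8% (-49.3 points, q = 0.00150). A second region, 343 bases after the start with 9 sites, went from 35.7% to 11.0% (q = 0.00904). It passed the q threshold but its difference of -24.7 points fell just short, so it was not called. Further inside the gene, 7 sites at 22176531 to 22176658 went from 17.4% to 43.5% and were called (26.1 points, q = 2.41e-06), the lowest q among the 45 regions. The other 3 regions lay 2120, 2648 and 31036 bases after the start. The middle of these went from 5.63% to 38.3% (32.7 points, q = 0.240), and the others were at 0% in control cells and 28.9% and 30.9% (28 sites) in the knockout, with q = 1 for each.

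**Figure D2:**
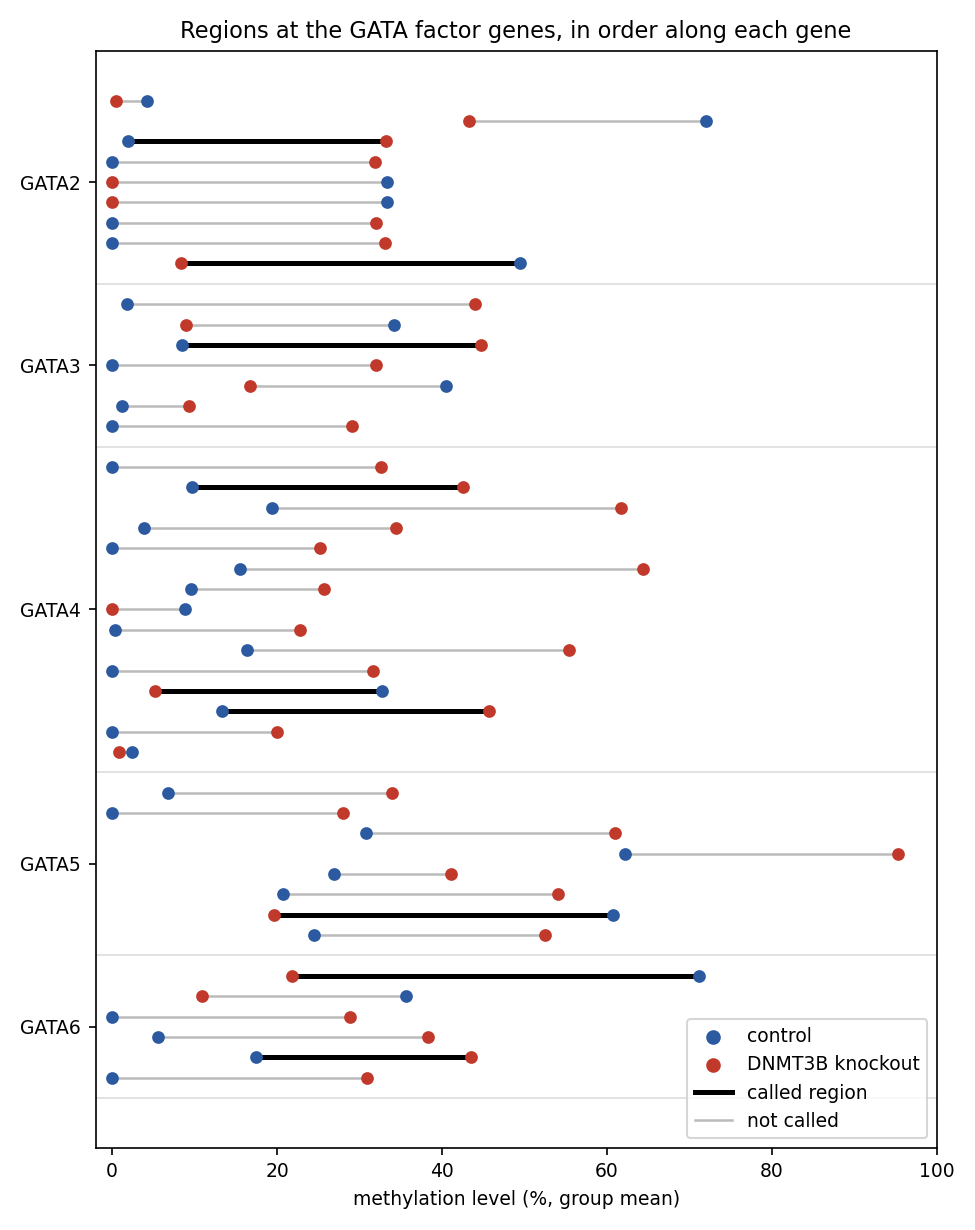
Methylation level (%, horizontal) of each of the 45 regions in control (blue) and DNMT3B knockout (red), in order of position within each gene; a line joins the group means of a region and is black where the region was called. The 5 called gains start at or below 17.4% in control cells, and the 4 called losses start at 32.7% or above.

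The called gains and losses had different starting levels and positions. The 5 called gains began at 1.91% to 17.4% in control cells and reached 33.3% to 45.8% in knockout cells, so that no mean passed 50%. Without values per library, whether the knockout libraries shared these levels is not known. Over all 1606 regions called higher, 66.7% had a knockout mean above 50%. The 4 called losses began at 32.7% to 71.1% and ended at 5.24% to 21.8%; the difference threshold itself requires a loss to begin at 25% or above. All 5 gains lay inside the span of their GATA gene, as did 34 of all 45 GATA regions. Of the 4 losses 3 lay outside that span, at GATA2, GATA5 and GATA6. Those at GATA2 and GATA6 lay within the antisense RNA genes GATA2-AS1 and GATA6-AS1. This overlap was not particular to the losses: the called gain at GATA3 overlaps GATA3-AS1, and that at GATA2 reaches the GATA2-AS1 promoter. Regions of both directions that were not called also overlap GATA2-AS1 and GATA3-AS1. The gains were long, with a median of 263 bases and 24 sites, and the losses short, with a median of 39 bases and 6.5 sites. Over the whole table the median lengths of called gains and losses were 61 and 53.5 bases, and their median sites 11 and 10. These are counts of few regions and were not tested.

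The median difference of the GATA regions was 28.0 points, against 17.4 points over all regions. Order statistics over the GATA regions gave a 95% interval of 16.1 to 31.7, which holds 17.4. This interval takes neighbouring regions as independent and does not measure the spread between libraries, so it is no test of the GATA genes. Of the 45 regions, 32 were higher and 13 lower (71.1% higher, against 68.4%). A difference of at least 25 points in either direction was found at 35 of the 45 regions (77.8%, against 52.0%), and 26 of those 35 were not called. Starting levels were close to those of the table: 25 regions were under 10% in control cells (55.6%, against 53.3%). In the knockout 9 were (20.0%, against 27.5%). Knockout levels above 50% were found at 7 regions (15.6%, against 15.3%), 4 at GATA5 and 3 at GATA4. The GATA regions were larger than those of the table, with a median of 93 bases against 57, and 15.6% of them had at least 20 sites, against 3.89%. With at least 20 sites, 4 of 7 GATA regions were called, against 37.4% of all such regions, and with fewer sites 5 of 38 were (13.2%), against 5.5%.

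Many GATA regions were at exactly 0 in one group. In 11 of the 45 (24.4%) the control was at 0 and the knockout between 25% and 34%, as in 21.0% of the table. In 2 (4.44%), both at GATA2, the knockout was at 0 and the control at 33.3%, as in 2.28% of the table. All 13 had a Kolmogorov-Smirnov p of 1 and none was called. Over the GATA regions q rose in step with that p, so the second follows from the first. Without them 32 regions remained, with a median difference of 24.3 points, against 4.12 points over the table without such regions. The part of these values in the medians was not tested. Without values per library, whether a mean near 33.3% was shared by the 3 libraries of its group or came from 1 of them is not known.

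**Figure D3:**
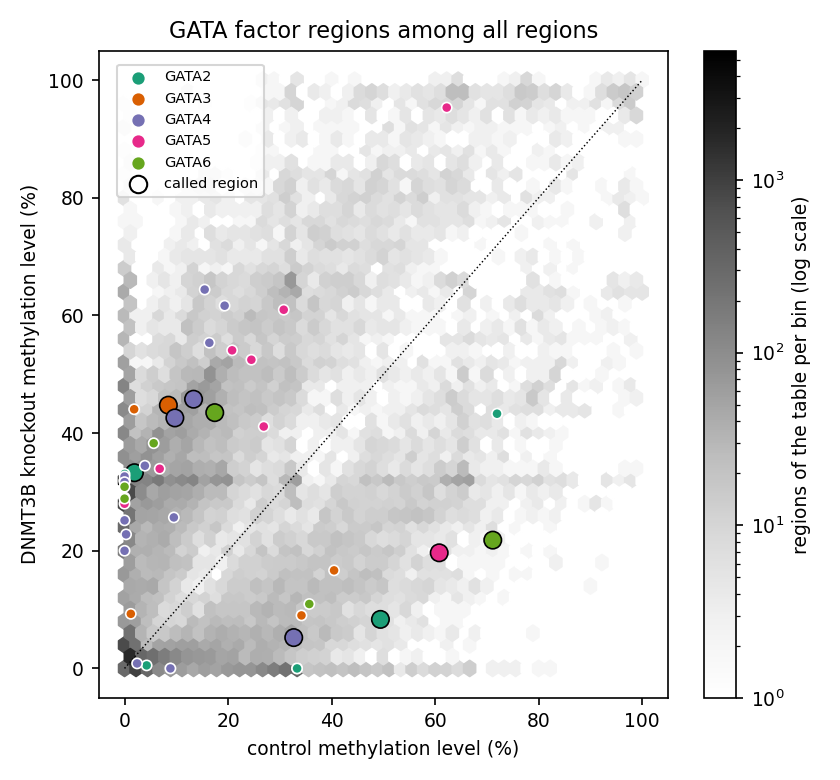
Control (horizontal) against DNMT3B knockout (vertical) methylation level in %, for all regions of the table (grey, number per bin on a log scale) and the 45 GATA regions (colour by gene, large and outlined where called). Points above the dotted line of equality are higher in the knockout, and 11 GATA regions sit at 0 in control cells between 25% and 34% in knockout cells.

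The nearest regions on either side of the 15 kb limit of the rule differed in the same direction at GATA3 and GATA5. Just inside it, at 14152 bases from GATA5, 9 sites went from 6.79% to 33.9%, and just outside, at 16804 bases, 5 sites went from 27.4% to 43.2%. At GATA3 the first region outside, 18258 bases away, went from 0% to 73.9% over 6 sites with q = 1. At GATA2 the region inside was the called loss of -41.1 points, 4138 bases away, and the first outside, 46423 bases away, differed by -34.3 points (q = 0.0720). These GATA2 regions lie beyond opposite ends of the gene and neither is near the limit, so their shared direction says nothing about it. At GATA4 the directions parted, with -1.58 points inside and 33.3 points at the first region outside, 34789 bases away. No further region was found within 50 kb of GATA6.

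Genes that work with GATA factors were read in the same way. The list held 24 genes, among them GATA1, the cofactors ZFPM1 and ZFPM2 (also called FOG), the blood partners TAL1, LMO2, LDB1, RUNX1 and FLI1, and the cardiac partners NKX2-5, TBX5 and ISL1. Of their 147 regions within 15 kb, 7 were called, 6 higher and 1 lower, at 7 different genes. This is a share of 4.76%, near the 6.74% of the table, and the count ran from 2 to 21 with the rule for calling. Their median difference was 13.4 points. GATA1, the factor that follows GATA2 in megakaryocytes, had 2 regions, both over the neighbouring gene HDAC6 and not called: 12 sites at 1.57% and 5.13% (q = 0.00645, 3.56 points) and 7 sites at 41.5% and 33.0%.

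Of the called partner regions 6 were gains and 1 was a loss, and over all regions 1606 were called higher and 762 lower. LMO2, which bridges GATA and TAL1 complexes, went from 4.62% to 50.04% over 5 sites. TCF3, a partner of TAL1, went from 12.8% to 55.6% over 13 sites. CBFA2T3, a corepressor and a partner in the fusion that the series is named for, went from 15.4% to 83.4%. Near HHEX, a homeobox gene, 35 sites went from 5.56% to 38.1%. The region counted for KLF1, an erythroid factor, lies 2733 bases from it within DNASE2 (29 sites, 2.30% to 36.7%), and that for ZFPM1 lies 13444 bases away within ZNF469 (44.2% to 84.7%). The loss was inside GATAD2A, a subunit of the NuRD chromatin complex, from 52.7% to 19.0%. The cardiac partners had no called region among 20, a number too small to be set against the 6.74% of the table, and the median difference was -8.59 points at NKX2-5, -18.7 points at TBX5 and 18.0 points at ISL1.

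**Figure D4:**
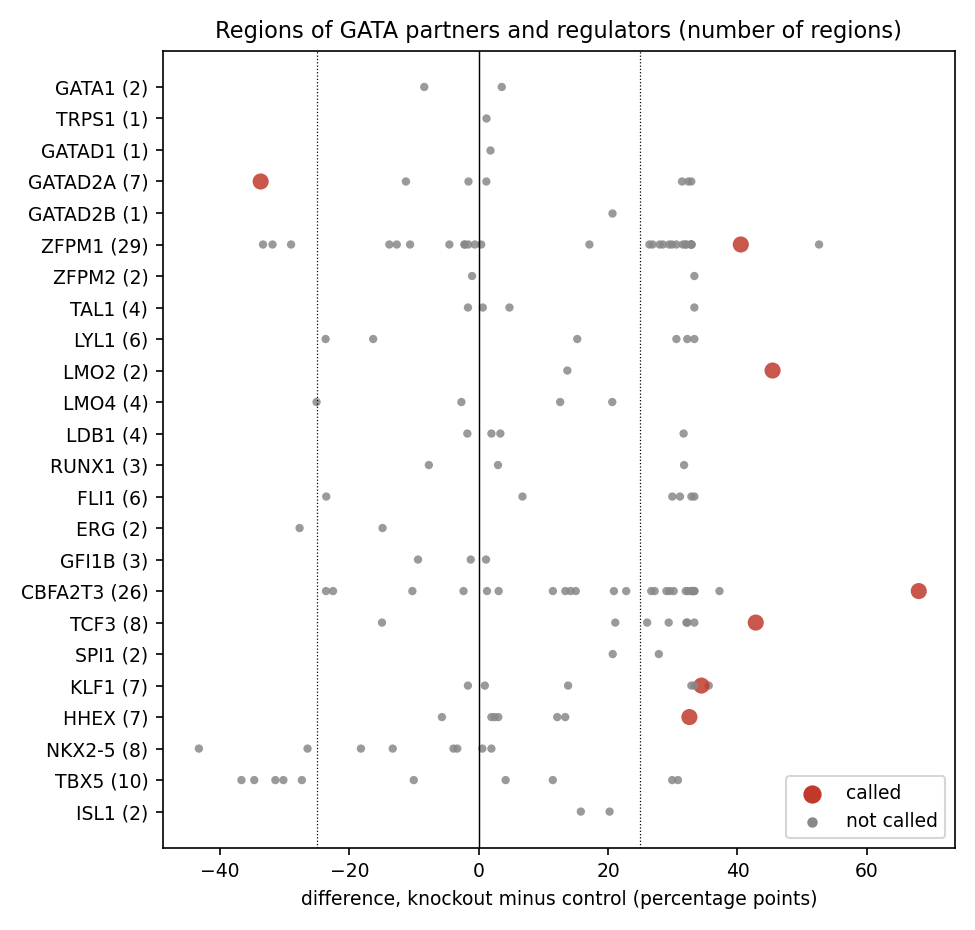
Difference between knockout and control (percentage points, horizontal) at each region of the 24 partner and regulator genes, with the number of regions in brackets; large red points are called regions and dotted lines mark 25 points in each direction. Calls are at 7 genes, 6 of them to the right of 0.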

How the data were processed

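Reduced representation bisulfite libraries of 3 control and 3 DNMT3B knockout samples were summarised by the authors in 1 table of regions. Bismark, HISAT2, methylKit, FastQC, Trimmomatic and the build hg38 are named, per the submitters' processing notes, without versions or roles. The name and settings of the region caller were not given in the sources used here. Per the file headers, the authors deposited a mean methylation percent per group, the difference, the number of sites, a Mann-Whitney p-value, a 2-dimensional Kolmogorov-Smirnov p-value and a q-value whose derivation is not given. Over the GATA regions the q-value rose in step with the Kolmogorov-Smirnov p-value and not with the Mann-Whitney p-value.

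Positions are 1-based and give the first and last cytosine. This was checked on the 2489 regions that lie inside a RefSeq promoter window: both ends fell on a CpG cytosine in all 2489 when positions were read 1 base higher than a half-open interval, and in 962 otherwise. Read so, the deposited number of sites never exceeded the CpG cytosines on both strands and equalled them in 56.6%. A site is therefore a cytosine on one strand, with up to 2 per CpG.

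Regions were assigned by RefSeq gene spans (GRCh38.p14) with Python 3.11.15 and pandas 2.3.3. No test was added, since the table has no values per library. Named regions are those called, those with at least 20 sites, those within 1000 bases of an annotated start and the 2 largest differences per gene; of partner genes, the called region of lowest q, and GATA1. Members and lists were chosen with earlier results of these data known. Calling and overlap were tested on simulated data.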

Additional observations from a re-analysis of the deposited data

How the results depend on the processing

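A difference of at least 10 points and an authors' q under 0.05 are looser forms of the same rule, so all 9 called GATA regions stay called by construction. The 9 were also called with Benjamini-Hochberg adjustment over all regions of either authors' p-value under 0.05. Over the GATA regions q rose in step with the Kolmogorov-Smirnov p, so of these settings only the Mann-Whitney one could have dropped a call. At a difference of at least 40 points 3 GATA regions in 3 genes were called (6.67%, against 3.42% of all regions), all 3 lower in the knockout, and at q under 0.001 there were 5 (11.1%, against 3.31%). With the adjusted Mann-Whitney p 18 of 45 were called (against 18.8% of all regions). With regions that overlap a gene only, 6 were called in 4 genes (5 higher, 1 lower). For the partner list, the 7 called regions became 4 at 40 points, 12 at q under 0.05, 2 at q under 0.001, 21 with the Mann-Whitney p and 4 when regions had to overlap the gene. The median GATA difference was 31.9 points over regions with at least 10 sites and 26.6 to 31.4 points under the other alternatives; leaving out each gene in turn, added after seeing the data, gave 6 to 8 called regions. Replicates could not be left out, because the table has 1 mean per group. No paired analysis was possible because the columns carry no replicate. Without coverage, the precision of each level is unknown.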

Other observations

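The authors' 2 p-values parted at regions with a group mean of 0. At the GATA4 region of 24 sites that was at 0% in control cells and 32.6% in knockout cells, the Mann-Whitney p was 3.03e-05 and the Kolmogorov-Smirnov p was 1. Of the 13 GATA regions with one mean at 0 and the other between 25% and 34%, 5 would be called by the adjusted Mann-Whitney p and none was called by the authors' q. Over the whole table such means occurred at 8185 regions, 1158 of them called by the adjusted Mann-Whitney p, and 99.8% had a Kolmogorov-Smirnov p of 1.

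The deposited number of sites counts strands separately, so the smaller GATA calls rest on few CpG dinucleotides. The largest GATA loss, before GATA6, spans 6 bases, and its 5 sites are cytosines of both strands. The CpG that the border of the GATA2 pair divides has its cytosines in regions of opposite direction.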
